A study of Mus musculus with 12 samples.

Results

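The transcripts of 10 plasma membrane amino acid transporters were followed in mouse embryonic fibroblasts (MEFs) through amino acid and serum starvation. They are Slc38a1, Slc38a2, Slc1a4, Slc1a5, Slc7a1, Slc7a3, Slc7a5, Slc7a6, Slc7a11 and Slc3a2. They were chosen by gene symbol as the carriers of this kind to be described, with earlier results of these data known. They are 10 of the 24062 gene rows of the count table. All 10 passed the filter on low counts, which left 12154 genes to be tested.

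Total RNA of 12 samples was sequenced after poly(A) enrichment, with 3 replicates in each of 4 conditions. Control MEFs expressed shRenilla, an shRNA against the luciferase of the sea pansy that has no target in mouse cells. Knockdown MEFs expressed shBruce#1, a single hairpin against Birc6, the gene of the giant ubiquitin ligase BRUCE, which the study links to autophagy. Both lines carry an shRNA. Each line was kept in fully supplemented medium (FM) or moved for 2 h to starvation medium without serum and amino acids (Starv). One line stands for each hairpin, so other differences between the lines and the knockdown cannot be told apart. The withdrawal of serum, that of amino acids and any other difference between the media cannot be told apart either. The labels number the replicates without saying that they came from separate cultures, and p-values measure the spread between these samples.

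Cells take up amino acids through carriers of a few families that differ in substrate and in ion coupling. Sodium-coupled symporters of system A load the cell with small neutral amino acids, and exchangers of the ASC, L and xc- systems trade one amino acid for another, so that the outflow of glutamine or glutamate pays for the entry of leucine or cystine. When amino acids run short, uncharged tRNAs activate the kinase GCN2, translation of the transcription factor ATF4 rises, and ATF4 with its CEBP partners binds composite elements at genes for amino acid synthesis and transport. Several of the carriers described here are textbook genes of this amino acid response.

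Values are normalized counts, that is reads per gene divided by the effective size of the library relative to the mean library, as set by edgeR's TMM method. Total counts ranged from 7717265 to 18510540 per library, and the lowest was that of shBruce Starv replicate 1. Birc6 was lower in every shBruce library than in every shRenilla library of the same medium, with 4339 ± 942 against 1287 ± 93.7 in FM (SD, n = 3) and 4086 ± 1125 against 1035 ± 288 in Starv (SD, n = 3). The fitted log2 fold changes of Birc6 were -1.75 (adjusted p = 0.0627) and -1.98 (adjusted p = 0.0186). Summed over 10 fibroblast markers, normalized counts lay between 130660 and 200070 per library. Of these markers 9 passed the filter on low counts, and the other, Thy1, was at 0 in shBruce FM. The sums of the 5 epithelial and 5 endothelial markers were at most 56.5 and 71.0, and the sum of the 4 macrophage and leukocyte markers in the table was at most 144, with Aif1 at 0. Libraries differed in how long transcripts compared with short ones. The median gene above 6881 exonic bases, relative to the median gene below 2820, stood between -0.03 and 0.52 (log2) in shRenilla libraries and between -0.59 and 0.07 in shBruce libraries, each relative to the gene's mean over all libraries. Its part in the differences between the lines was not tested directly, and values with this trend removed are given where it matters.

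Promoters are shown first, as a description. RefSeq promoter windows on GRCm38.p6, which run from 250 bases before to 50 bases after a start site, were matched for Slc7a1, Slc7a6, Slc7a11, Slc3a2, Slc38a2 and Slc1a4. Slc7a3, Slc7a5, Slc38a1 and Slc1a5 had no window and were left out of the search. The windows were searched on both strands for TGATGNAA, the core of the composite element that ATF4 and CEBP proteins share. Of the 6 genes with a window, Slc7a11 and Slc1a4 held it, and it was present in 3.97% of all 32851 promoter windows of this length. Upstream sequences are printed 5′ to 3′ on the strand of the gene, with matches to TGATGNAA or its reverse complement in capitals.
Slc7a11 (chr3:50443614-50443763, minus strand): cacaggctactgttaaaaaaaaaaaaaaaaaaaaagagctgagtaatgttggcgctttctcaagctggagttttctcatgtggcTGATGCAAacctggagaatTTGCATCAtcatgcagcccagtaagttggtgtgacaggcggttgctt
Slc1a4 (chr11:20332710-20332863, minus strand): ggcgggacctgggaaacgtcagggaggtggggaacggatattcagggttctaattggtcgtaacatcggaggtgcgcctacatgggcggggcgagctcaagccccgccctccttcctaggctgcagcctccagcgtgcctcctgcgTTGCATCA
Slc38a2 (chr15:96699729-96699878, minus strand): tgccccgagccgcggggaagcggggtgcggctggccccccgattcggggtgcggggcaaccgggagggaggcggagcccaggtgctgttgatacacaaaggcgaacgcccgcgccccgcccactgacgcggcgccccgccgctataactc
Slc3a2 (chr19:8713898-8714047, minus strand): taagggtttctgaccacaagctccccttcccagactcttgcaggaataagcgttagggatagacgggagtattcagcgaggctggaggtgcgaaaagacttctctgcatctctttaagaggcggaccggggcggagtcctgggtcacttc
The Slc7a11 window held the core on both strands, starting 66 and 47 bases before the transcription start. In Slc1a4 the match began 4 bases before the start and ran across it, on the opposite strand. Slc38a2 and Slc3a2 are shown as transporters that rose with no match in the window, and the Slc3a2 window belongs to a start that lies inside the gene as annotated by GENCODE. The windows of Slc7a1 and Slc7a6 also held none. The E-box CACGTG, present in 7.15% of windows, was in none of the 6 genes, and the antioxidant core TGACNNNGC, present in 12.4%, was in Slc7a1, Slc7a6 and Slc38a2. A match is a string of letters and does not show binding, and sequence outside these windows was not searched. The part of such motifs in the starvation changes was not tested.

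In shRenilla MEFs, 8 of the 10 transporters rose after 2 h of starvation and 0 fell at an adjusted p under 0.05 in edgeR's quasi-likelihood test, against 9.69% of all tested genes that rose and 7.27% that fell. At an unadjusted p under 0.05, all 10 passed, as did 31.6% of genes. In shBruce MEFs, 7 rose and 1 (Slc7a6) fell, against 12.4% and 10.6% of tested genes, and 9 passed at an unadjusted p under 0.05, as did 36.3% of genes. Higher in both lines were 7 of 10, against 7.13% of genes. Together the calls in either direction made up 17.0% of genes in shRenilla MEFs and 23.0% in shBruce MEFs. The median log2 fold change of the 10 transporters was 1.10 and 0.96, beside -0.01 and 0.02 over all genes tested. As the 10 were chosen with earlier results of these data known, such contrasts describe them and are not a test. The starved libraries of shRenilla MEFs stood apart from the FM libraries for all 10 transporters, against 52.4% of genes, with 9 above the FM libraries (25.9% of genes) and 1 below (26.5%). Those of shBruce MEFs stood apart for 7 of 10 (30.9% of genes), with 6 above (16.2%) and 1 below (14.8%). The share of all reads that fell on the 10 genes went from between 0.144% and 0.149% in shRenilla FM to between 0.316% and 0.330% in shRenilla Starv, and from between 0.137% and 0.153% to between 0.232% and 0.343% in shBruce MEFs. In bulk RNA, a change in the number of cells that express a gene and a change in RNA per cell cannot be told apart.

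**Figure D1:**
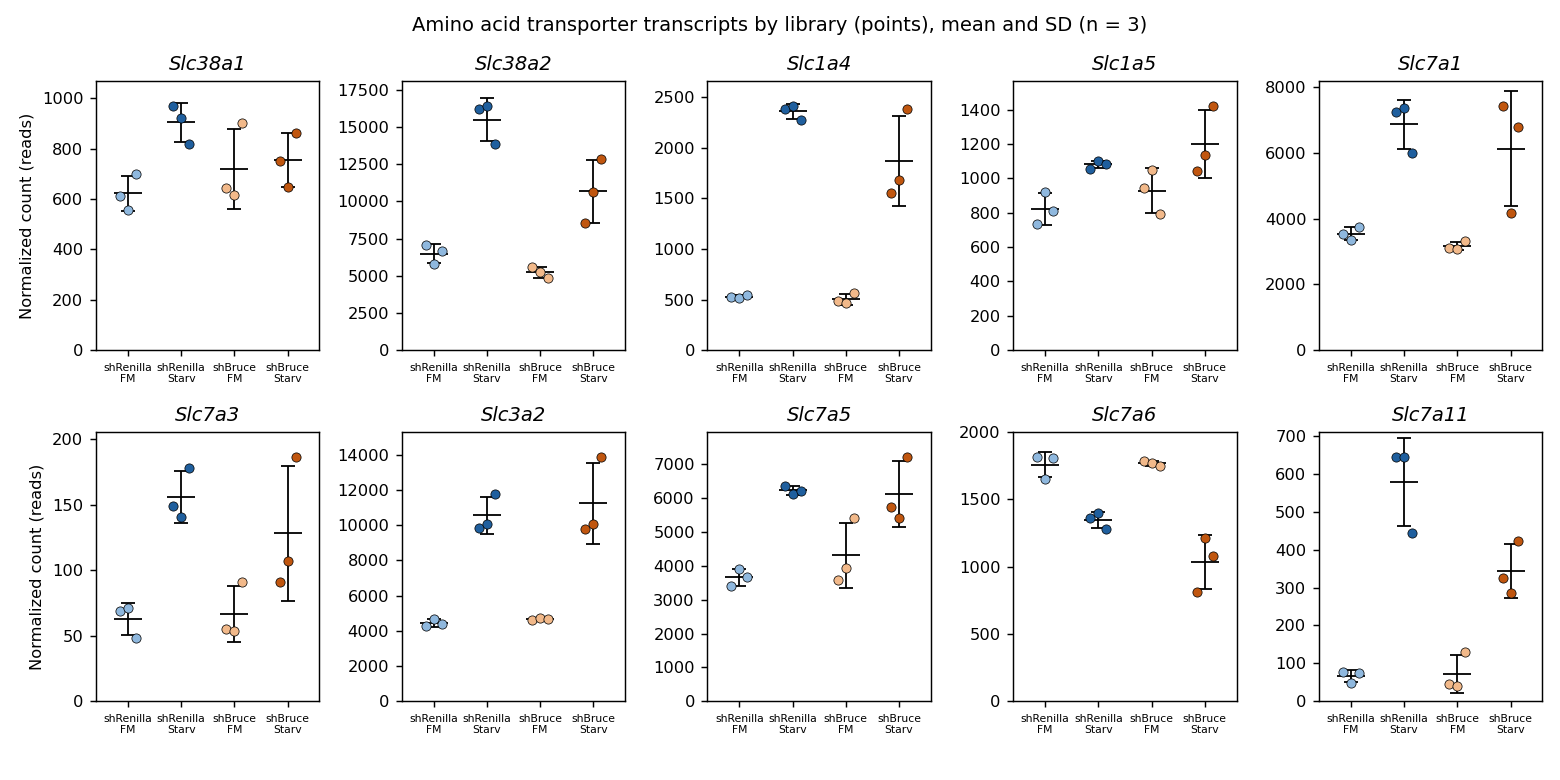
Normalized counts (reads, y axis from 0) of the 10 transporters in each of the 12 libraries, grouped by line and medium on the x axis. Points are libraries, and lines and bars are the mean and SD (n = 3). Slc7a6 is the gene whose starved libraries all lie below the FM libraries in both lines, and Slc1a4 rises from at most 566 in any FM library to at least 1550.2 in any starved one.

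System A is carried by Slc38a2, which encodes SNAT2, the isoform known for its induction when amino acids are withdrawn, and by its neighbour Slc38a1, which encodes SNAT1. Both lie on the minus strand of chromosome 15 of GRCm38, Slc38a2 at chr15:96687392-96699730 and Slc38a1 at chr15:96571418-96642913. Slc38a2 had normalized counts of 7052, 5763 and 6664 in the shRenilla FM replicates and of 16201, 16434 and 13824 in the shRenilla Starv replicates. In shBruce MEFs it had 5596, 5233 and 4844 in FM and 8549, 10625 and 12822 in Starv. Every starved library was above every FM library. The change was 2.38-fold in shRenilla MEFs (log2 1.25, standard error 0.15, adjusted p = 1.3e-04) and 2.04-fold in shBruce MEFs (log2 1.03, standard error 0.15, adjusted p = 4.7e-04).

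Slc38a1 moved less. It had 612, 557 and 698 in shRenilla FM and 972, 922 and 821 in shRenilla Starv, with no overlap. In shBruce MEFs it had 643, 616 and 904 in FM and 753, 649.8 and 862 in Starv, where the ranges overlapped. It rose 1.45-fold in shRenilla MEFs (log2 0.54, adjusted p = 0.0395), and the log2 fold change in shBruce MEFs was 0.07 (95% confidence interval -0.29 to 0.42, adjusted p = 0.806). The call in shRenilla MEFs did not hold when any 1 of the 6 shRenilla libraries was left out (log2 from 0.46 to 0.63, adjusted p from 0.0533 to 0.161), nor without shBruce FM replicate 1 (0.54, adjusted p = 0.0504) or without the filter on low counts (0.51, adjusted p = 0.0565).

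Slc1a4 and Slc1a5 encode ASCT1 and ASCT2, sodium-dependent exchangers of alanine, serine and cysteine, of which ASCT2 also carries glutamine. Slc1a4 (chr11:20302180-20332713, minus strand), whose promoter is printed above, rose more. Its counts were 522, 519 and 546 in shRenilla FM and 2384, 2419 and 2276 in shRenilla Starv. In shBruce MEFs they were 487, 462 and 566 in FM and 1550.2, 1678 and 2382 in Starv. The libraries of the 2 media were far apart in both lines, with the starved shBruce libraries more spread than the starved shRenilla libraries. The rise was 4.46-fold in shRenilla MEFs (log2 2.16, standard error 0.16, adjusted p = 1.9e-06) and 3.71-fold in shBruce MEFs (log2 1.89, standard error 0.16, adjusted p = 4.6e-06).

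Slc1a5 (chr7:16781340-16798274, plus strand) did not pass the test in either line. It had 735, 919 and 810.1 in shRenilla FM and 1057, 1102 and 1086 in shRenilla Starv, and 946, 1052 and 790.4 in shBruce FM and 1044, 1135 and 1425 in shBruce Starv. The shRenilla groups did not overlap, and the shBruce groups overlapped. Its log2 fold changes were 0.40 (95% confidence interval 0.08 to 0.71, adjusted p = 0.0800) and 0.37 (0.06 to 0.69, adjusted p = 0.0844). Under 6 of 22 alternatives in shRenilla MEFs and 3 of 22 in shBruce MEFs it passed, with log2 fold changes that stayed between 0.32 and 0.49 and between 0.23 and 0.47.

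The cationic amino acid transporters CAT1 and CAT3, encoded by Slc7a1 (chr5:148327410-148399904, minus strand) and Slc7a3 (chrX:101079210-101086020, minus strand), bring in arginine and lysine. Slc7a1 had 3531, 3354 and 3759 in shRenilla FM and 7251, 7355 and 6008 in shRenilla Starv. In shBruce MEFs it had 3114, 3069 and 3310.4 in FM and 7440.4, 4157 and 6789.7 in Starv. Starved libraries were higher throughout, and shBruce Starv replicate 2 was the lowest of them. The rise was 1.94-fold in both lines (log2 0.95 and 0.95, adjusted p = 0.00281 and 0.00225).

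Slc7a3 was a low-count gene. It had 68.6, 70.7 and 48.4 in shRenilla FM against 149, 140.2 and 178 in shRenilla Starv, and 55.2, 53.4 and 91.2 in shBruce FM against 90.8, 107 and 187 in shBruce Starv. The shRenilla groups were separate, and in shBruce MEFs the lowest starved library lay just under the highest FM library. It rose 2.49-fold in shRenilla MEFs (log2 1.31, standard error 0.28, adjusted p = 0.00625) and 1.95-fold in shBruce MEFs (log2 0.96, standard error 0.29, adjusted p = 0.0282). In shBruce MEFs the call was lost without shBruce FM replicate 1 (log2 0.84, adjusted p = 0.106), without shBruce FM replicate 2 (0.82, adjusted p = 0.111), without shBruce Starv replicate 3 (0.57, adjusted p = 0.105) and in a fit of the shBruce libraries alone (0.96, adjusted p = 0.119).

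Slc3a2 (chr19:8706882-8723369, minus strand) encodes the heavy chain CD98hc, which carries no amino acid itself and brings SLC7 light chains to the plasma membrane. It had 4266, 4675 and 4413 in shRenilla FM and 9839, 10082 and 11767 in shRenilla Starv. In shBruce MEFs it had 4593, 4735 and 4659 in FM and 9786, 10075 and 13904 in Starv. FM libraries of both lines were close to each other and all starved libraries were above them. The rise was 2.37-fold (log2 1.25, standard error 0.14, adjusted p = 7.6e-05) in shRenilla MEFs and 2.41-fold (log2 1.27, standard error 0.14, adjusted p = 5.9e-05) in shBruce MEFs.

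The 3 light chains among the 10 transporters did not move as one. Slc7a5 (chr8:121881150-121907694, minus strand) encodes LAT1, the exchanger that imports leucine and other large neutral amino acids. It had 3399.5, 3918 and 3655 in shRenilla FM and 6369, 6120.0 and 6204 in shRenilla Starv, and 3585, 3940.4 and 5401 in shBruce FM and 5731, 5407 and 7230.0 in shBruce Starv. The groups were separate in both lines, in shBruce MEFs by a narrow gap between FM replicate 3 and Starv replicate 2. It rose 1.70-fold in shRenilla MEFs (log2 0.77, standard error 0.16, adjusted p = 0.00495) and 1.42-fold in shBruce MEFs (log2 0.51, standard error 0.16, adjusted p = 0.0341). The shBruce call held under 13 of 22 alternatives. It was lost in a fit of the shBruce libraries alone (0.52, adjusted p = 0.166) and without the filter on low counts (0.47, adjusted p = 0.0507). It was also lost without shBruce Starv replicate 3 (0.37, adjusted p = 0.0819), without shBruce FM replicate 1 (0.39, adjusted p = 0.144) or 2 (0.44, adjusted p = 0.124), and, with a log2 fold change of 0.50 and an adjusted p between 0.0508 and 0.0541, without shRenilla FM replicate 1 or 3 or shRenilla Starv replicate 1 or 2.

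Slc7a11 (chr3:49892526-50443614, minus strand) encodes xCT, which imports cystine in exchange for glutamate and so feeds the synthesis of glutathione. It rose more than any other of the 10 in both lines, from the lowest level per kb of transcript in FM. It had 77.5, 48.1 and 73.5 in shRenilla FM and 646, 646 and 445 in shRenilla Starv. In shBruce MEFs it had 46.7, 39.8 and 131 in FM and 325, 285 and 424 in Starv. FM and starved libraries did not overlap, and shBruce FM replicate 3 was well above the other FM libraries. The rise was 8.69-fold in shRenilla MEFs (log2 3.12, standard error 0.37, adjusted p = 1.1e-04) and 4.73-fold in shBruce MEFs (log2 2.24, standard error 0.37, adjusted p = 9.3e-04), and the latter log2 fold change was 2.99 without shBruce FM replicate 3.

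Slc7a6 (chr8:106168857-106198706, plus strand) encodes y+LAT2, which exports arginine in exchange for neutral amino acids and sodium, and it was the one transporter that went down. It had 1819, 1653 and 1805 in shRenilla FM and 1362, 1401 and 1279 in shRenilla Starv, and 1785, 1769 and 1748 in shBruce FM and 815, 1212 and 1077 in shBruce Starv. In each line every starved library was below every FM library. It fell in shBruce MEFs (log2 -0.77, standard error 0.13, adjusted p = 0.00134), to 0.587 of the FM level. In shRenilla MEFs its log2 fold change was -0.38 (95% confidence interval -0.67 to -0.10, adjusted p = 0.0620), which passed under 8 of 22 alternatives, among them those without shBruce Starv replicate 1 (-0.37, adjusted p = 0.00786), 2 (-0.39, adjusted p = 0.0368) or 3 (-0.39, adjusted p = 0.0409). The exact permutation test gave p = 0.1 for each comparison of medium whose groups do not overlap, the smallest two-sided p that 3 libraries against 3 allow.

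**Figure D2:**
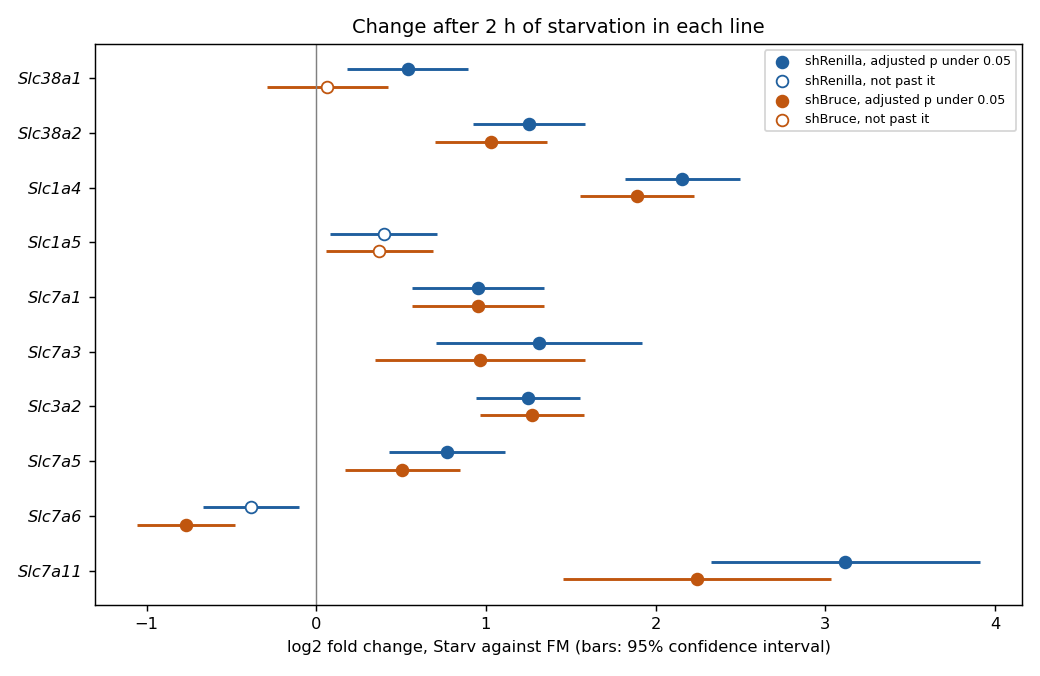
Log2 fold change of each transporter from FM to Starv (x axis) in shRenilla MEFs (blue) and shBruce MEFs (orange), with bars for the 95% confidence interval of edgeR's fit. Filled points are past an adjusted p of 0.05. Slc7a11 (3.12 and 2.24) and Slc1a4 (2.16 and 1.89) lie farthest to the right, and Slc7a6 (-0.38 and -0.77) is the only point left of 0.

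The lines were then compared within each medium, to ask whether knockdown of BRUCE changes these transcripts. The line comparisons use the same libraries as the comparisons of medium above. In FM, 0 of 10 transporters and 0% of all genes differed at an adjusted p under 0.05 in edgeR's test, with 0 transporters and 1750 genes (14.4%) at an unadjusted p under 0.05. DESeq2's Wald test called 76 genes and limma-voom 0, with 0 transporters in either. The log2 differences of the 10, shBruce against shRenilla, lay between -0.31 (Slc38a2, 95% confidence interval -0.64 to 0.01, adjusted p = 0.356) and 0.24 (Slc7a5, -0.10 to 0.58, adjusted p = 0.462). The widest interval was that of Slc7a11, from -0.69 to 0.95. Its difference was 0.13 with all libraries and -0.62 without shBruce FM replicate 3 (edgeR, adjusted p = 0.435), and so turned its direction with that library. The FM libraries of the 2 lines did not overlap for Slc38a2 and Slc7a1, 2 of 10 transporters, as for 33.4% of genes.

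In Starv, 1 of 10 transporters passed, against 23.9% of all genes, and it was Slc38a2, which was lower in shBruce MEFs as were 11.2% of genes. At an unadjusted p under 0.05, 4 of 10 passed, against 41.2% of genes. Its starved normalized counts, given above, were 15486 ± 1444 in shRenilla MEFs and 10665 ± 2137 in shBruce MEFs (SD, n = 3), with no overlap. The log2 difference was -0.54 with a standard error of 0.15 and a 95% confidence interval from -0.86 to -0.21 (edgeR, adjusted p = 0.0285). Once trends with gene length and GC content had been taken out of each library, the difference was -0.14 (adjusted p = 0.399). By exonic bases, Slc38a2 (8838), Slc7a1 (11530), Slc7a11 (13922) and Slc38a1 (17236) lie above the 6881 that marked long genes. The trends taken out were fitted on GC content and on the longest transcript, which has 6116 bases in Slc38a2. The part of either in the line differences was not tested. With these trends removed, the log2 difference between the lines in Starv went from -0.17 to 0.10 in Slc7a1, from -0.75 to -0.17 in Slc7a11 and from -0.26 to 0.10 in Slc38a1. Of the 10 transporters, 0 then passed.

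The Starv difference of Slc38a2 also depended on single libraries. It missed the level without shRenilla Starv replicate 1 (-0.51, adjusted p = 0.116), without shRenilla Starv replicate 2 (-0.49, adjusted p = 0.124), without replicate 1 (-0.42, adjusted p = 0.0671) or 2 (-0.54, adjusted p = 0.0677) of shBruce Starv, and in a fit of the 6 starved libraries alone (-0.54, adjusted p = 0.119). Over all genes the number of Starv calls moved from 2907 to 0 without either of these shRenilla libraries and to 573 and 15 without shBruce Starv replicate 1 and 2. It was 5735 of 12278 tested genes, with 3008 lower in shBruce MEFs, when the remaining starved shBruce library, replicate 3, was left out. Of the 10 transporters, 5 were then lower in shBruce MEFs, namely Slc38a2 (-0.69), Slc7a11 (-0.93), Slc7a3 (-0.64), Slc1a4 (-0.55) and Slc7a6 (-0.41). That replicate had the highest count of its group for 8 of the 10 transporters. Its median for long relative to short genes was 0.07, beside -0.59 and -0.56 in the other two.

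With all libraries in the fit, Slc7a11 differed by -0.75 (95% confidence interval -1.46 to -0.03, adjusted p = 0.109), Slc7a6 by -0.38 (-0.66 to -0.09, adjusted p = 0.0541) and Slc1a4 by -0.33 (-0.66 to -0.01, adjusted p = 0.110). Starved libraries of the 2 lines did not overlap for Slc38a2, Slc7a11 and Slc7a6, 3 of 10 and all lower in shBruce MEFs, against 34.9% of genes in either direction and 18.5% lower. The heavy chain Slc3a2 differed by 0.09 (-0.21 to 0.39), Slc7a5 by -0.03 (-0.36 to 0.31) and Slc1a5 by 0.15 (-0.16 to 0.47). In this fit, with trends kept, differences of more than about 0.5 on the log2 scale lay outside their intervals. With length and GC trends removed, the differences of Slc3a2 and Slc1a5 changed sign, with values given in the closing section.

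**Figure D3:**
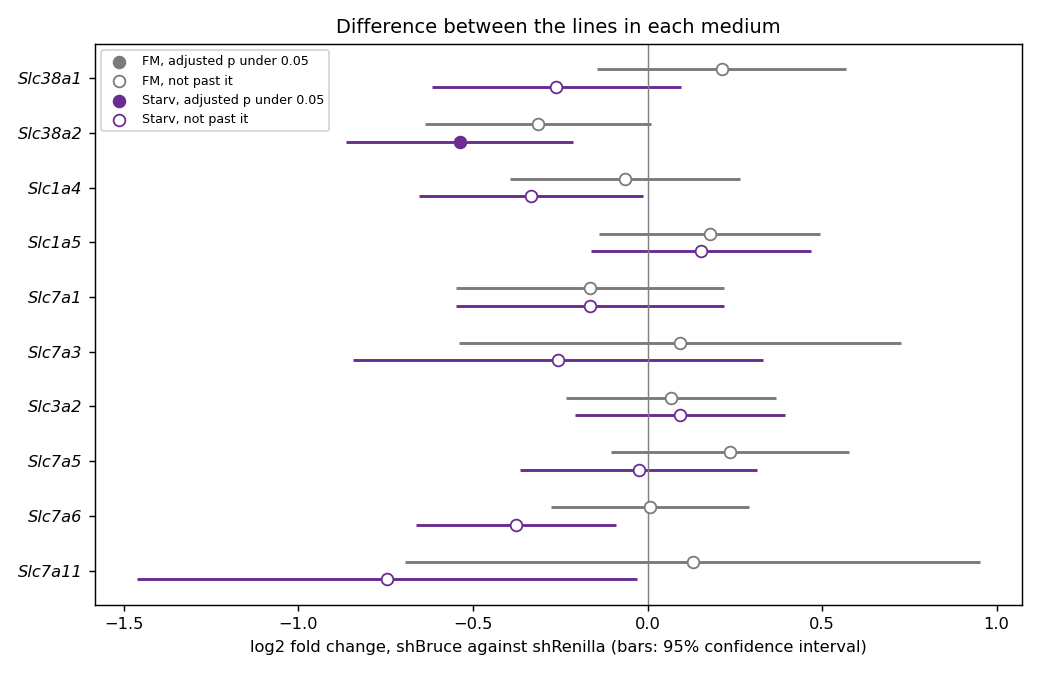
Log2 difference of shBruce against shRenilla MEFs (x axis) for each transporter in FM (grey) and Starv (purple), with bars for the 95% confidence interval of edgeR's fit. The only filled point, past an adjusted p of 0.05, is Slc38a2 in Starv at -0.54. Length and GC trends are not removed in this plot.

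The difference between the lines in the starvation change itself was tested as the interaction of line and medium. It passed for 0 of 10 transporters and 0% of genes in edgeR's test. At an unadjusted p under 0.05, 0 transporters and 474 genes (3.90%) did, and DESeq2's Wald test and limma-voom also called 0. Slc7a6 and Slc38a1 had the smallest unadjusted p of the 10 in this fit over 12 libraries. The interaction was -0.38 for Slc7a6 (95% confidence interval -0.79 to 0.02, unadjusted p = 0.0601) and -0.47 for Slc38a1 (-0.98 to 0.03, unadjusted p = 0.0636), both with an adjusted p of 0.806. For Slc7a11 it was -0.88 with an interval from -1.97 to 0.22, the widest of the 10, and -0.13 without shBruce FM replicate 3 (edgeR, adjusted p = 0.948). For Slc7a1 and Slc3a2 the interactions were 0.00 (-0.55 to 0.54) and 0.03 (-0.40 to 0.45). A gene past the level in a single line, as Slc38a1 in shRenilla and Slc7a6 in shBruce MEFs, was thus not shown to respond differently in the other line.

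To compare levels between genes, normalized counts were divided by the length of the longest annotated transcript. On this scale, per kb, Slc3a2 was highest in all 4 conditions, with 1582 ± 73.7 in shRenilla FM, 3755 ± 373 in shRenilla Starv, 1657 ± 25.3 in shBruce FM and 4001 ± 817 in shBruce Starv (SD, n = 3). Slc38a2 and Slc7a5 followed, at 1062 and 1040.0 in shRenilla FM, where their libraries overlapped, and at 2532 and 1772 in shRenilla Starv, where they did not. In shBruce FM Slc7a5 was above Slc38a2 without overlap (1225 and 854), and in shBruce Starv they overlapped again (1741 and 1744). Slc7a1 and Slc7a6 came next in FM, at 494 and 469 in shRenilla MEFs with overlap and at 441 and 471 in shBruce MEFs without. After starvation Slc7a1 was ahead with 957 and 854, and Slc7a6, with 359 and 276, was below Slc1a4 and Slc1a5.

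Slc1a4 was below Slc1a5 per kb in FM (135 against 293 in shRenilla and 129 against 331 in shBruce MEFs) and above it in Starv (601 against 385, without overlap, and 476 against 428, with overlap). Slc38a1 followed with 85.7 to 125. Slc7a3 and Slc7a11 were the lowest, at 22.7 and 7.20 in shRenilla FM without overlap and at 56.7 and 62.8 in shRenilla Starv with overlap. With the union of all exons as the length, Slc3a2 was still highest in each condition. The order of these neighbours was then the other way round in shRenilla FM (Slc38a2 and Slc7a5, Slc7a1 and Slc7a6), in shBruce Starv (Slc38a2 and Slc7a5) and in shRenilla Starv (Slc7a1 and Slc1a4, Slc1a5 and Slc7a6).

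**Figure D4:**
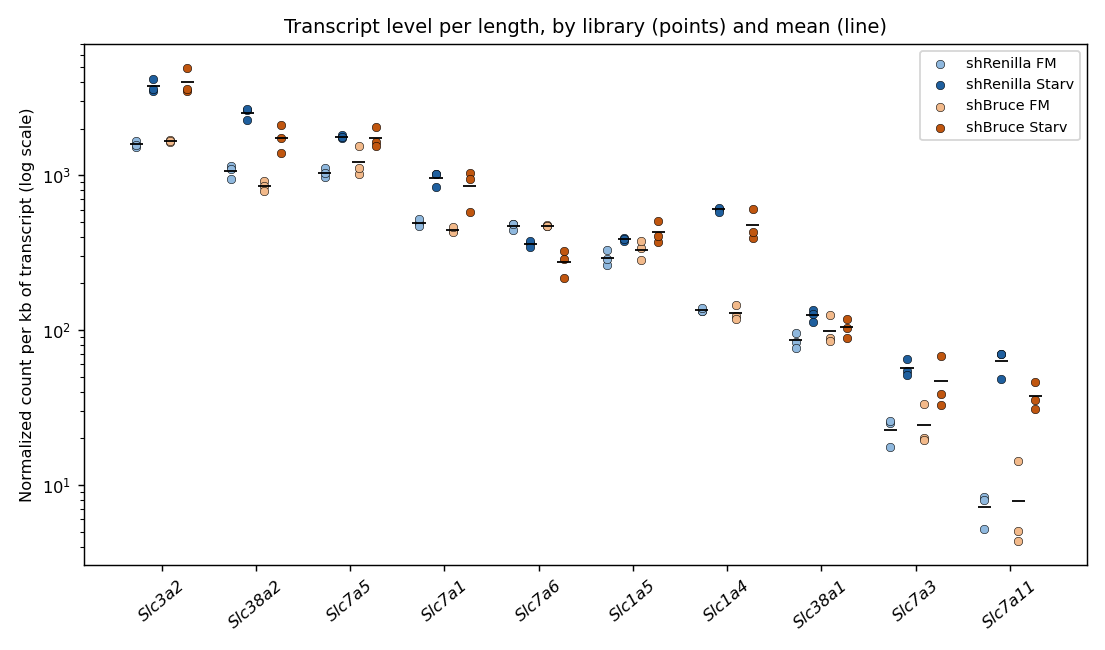
Normalized count per kb of the longest annotated transcript (y axis, log scale) for the 10 transporters, ordered on the x axis by their mean in shRenilla FM. Points are libraries coloured by condition and lines are means (n = 3). Slc3a2 is highest in all 4 conditions, Slc1a4 overtakes Slc1a5 after starvation, and Slc7a11 starts lowest at 7.20 in shRenilla FM.

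Added per kb over the 10 genes, the transporters went from 5190.3 ± 63.3 in shRenilla FM to 10605 ± 52.2 in shRenilla Starv and from 5240.0 ± 239 in shBruce FM to 9708 ± 1704 in shBruce Starv (SD, n = 3). The makeup of the sum shifted as well, and its parts are given as a description without a test. Slc3a2 was set against the sum of the 3 light chains among the 10, Slc7a5, Slc7a6 and Slc7a11, and other partners such as Slc7a7 were left out. Their ratio, per kb, was between 1.03 and 1.07 in shRenilla FM and between 1.56 and 1.94 in shRenilla Starv. In shBruce MEFs it was between 0.822 and 1.09 in FM and between 1.85 and 2.07 in Starv. The heavy chain therefore gained more transcript than these 3 light chains together in every starved library. Among these 3 light chains, Slc7a6 went from 31.0% ± 2.52 to 16.4% ± 0.654 in shRenilla MEFs and from 28.1% ± 4.47 to 13.6% ± 3.07 in shBruce MEFs, while Slc7a5 went from 68.5% ± 2.65 to 80.8% ± 1.12 and from 71.4% ± 4.26 to 84.6% ± 2.92 (SD, n = 3). Slc7a11 stayed a minor part, at 0.477% and 0.437% in FM and 2.86% and 1.81% in Starv.

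The ratio of Slc1a4 to Slc1a5 per kb was 0.464 ± 0.0541 in shRenilla FM, 1.56 ± 0.0577 in shRenilla Starv, 0.398 ± 0.103 in shBruce FM and 1.10 ± 0.0785 in shBruce Starv (SD, n = 3). Every starved shBruce library was below every starved shRenilla library. The ratio of Slc38a2 to Slc38a1 was 12.4 ± 1.18, 20.3 ± 0.733, 8.93 ± 2.23 and 16.9 ± 3.05 in the same order, and the lines did not overlap in either medium. That of Slc7a1 to Slc7a3 was 22.6 ± 6.29, 17.2 ± 3.78, 19.2 ± 4.57 and 20.1 ± 9.80, and its ranges overlapped among all 4 conditions. Taken as single genes, 33.4% did not overlap between the lines in FM and 34.9% in Starv, and the ratios were not tested.

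Amino acid carriers of other places were read beside them. Of 33 other transporters listed as carriers of the plasma membrane, 10 passed the filter on low counts. Of these, 4 rose in shRenilla and 3 in shBruce MEFs, with 0 falling (median log2 fold change 0.33 and 0.31). Slc6a9, the glycine transporter GLYT1, rose most, by 2.24 (adjusted p = 3.4e-04) and 1.59 (adjusted p = 0.00227), and the latter was 2.20 without shBruce FM replicate 3 (adjusted p = 1.2e-05). Slc6a15, a carrier of branched-chain amino acids and proline, rose by 0.99 and 0.95 from mean counts of 86.8 and 47.5 in FM, and its shBruce call was lost without shBruce FM replicate 2 (0.87, adjusted p = 0.0600). Slc43a2, the leucine facilitator LAT4, rose by 0.58 in shRenilla MEFs (adjusted p = 0.0169), a call that was lost without shRenilla FM replicate 1 or 3 or Starv replicate 1 or 3 (0.52 to 0.58, adjusted p from 0.0531 to 0.0851), and its log2 fold change in shBruce MEFs was 0.34 (adjusted p = 0.115). Slc6a17, in this list although it is known as a carrier of synaptic vesicles, passed in shBruce MEFs (0.50, adjusted p = 0.0432). It did not pass in shRenilla MEFs (0.16, adjusted p = 0.522), and its call was lost under most alternatives.

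Of 7 transporters of the lysosomal membrane, 6 were tested and 5 rose in each line, with medians of 0.83 and 0.91. Ctns, which releases cystine from lysosomes, rose by 1.45 and 1.42, Slc38a7, which releases glutamine and asparagine, by 1.02 and 1.08, and Slc38a9, the arginine sensor of mTORC1 at the lysosome, by 0.92 and 0.87. Pqlc2, an exporter of cationic amino acids, rose by 0.74 and 0.96. These 4 kept their calls under every alternative, and the fifth did not. Among 8 tested mitochondrial carriers of 10, 0 rose and 1 fell in each line, Slc25a22, a glutamate carrier, by 0.80 and 0.75 on the log2 scale, and the medians were -0.20 and -0.10. What in the change of medium moved the genes listed as markers of the amino acid response was not tested. All 12 of 12 such markers rose in both lines, with medians of 1.33 and 1.22. These counts may be read against the shares of all tested genes given above. The lists were chosen with earlier results of these data known, so such a reading describes them and is not a test.

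**Figure D5:**
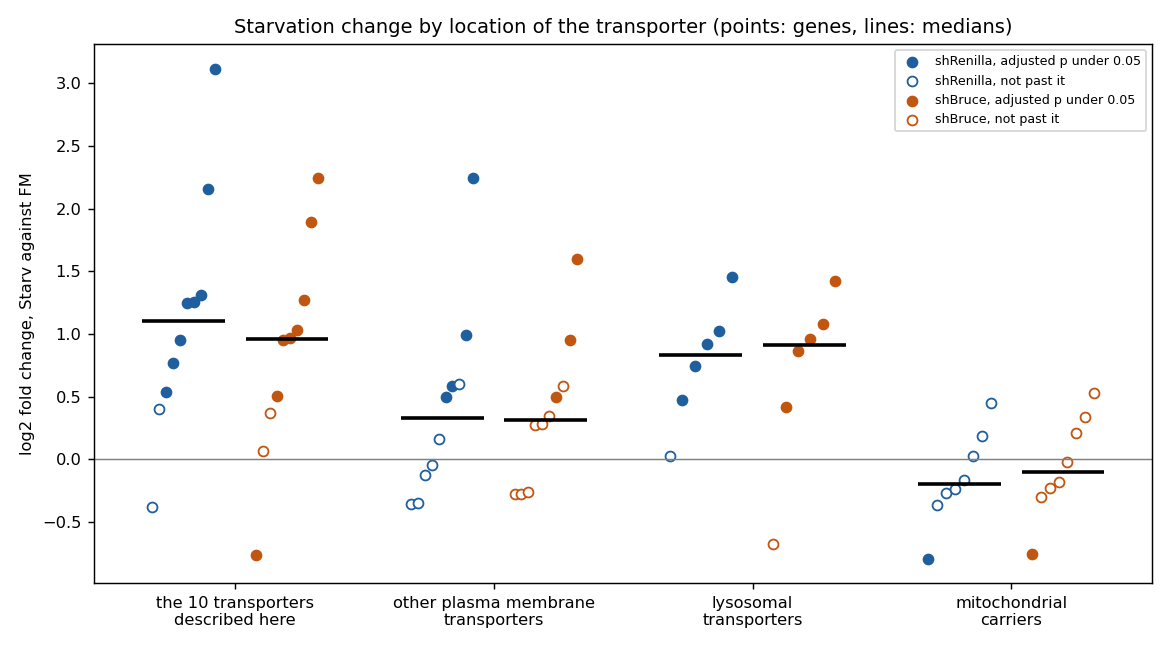
Log2 fold change from FM to Starv (y axis) for the 10 transporters and for tested genes of 3 other lists of amino acid carriers by location (x axis), in shRenilla MEFs (blue) and shBruce MEFs (orange). Points are genes, filled when past an adjusted p of 0.05, and lines are medians. Medians are 1.10 and 0.96 for the 10 transporters, 0.33 and 0.31 for other plasma membrane carriers, 0.83 and 0.91 for lysosomal and -0.20 and -0.10 for mitochondrial carriers. The list of other plasma membrane carriers includes Slc6a17.

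Lastly, the genes whose library-scaled log2 counts followed the transporters most closely over the 12 libraries were listed by Pearson's r, as a description in which the 2 media and the lines shape every value. For Slc1a4 they were Hbp1 (0.993), Cebpg (0.990), the CEBP partner of ATF4, and Tfb1m (0.990). For Slc3a2 they were Ciart (0.991), Lpar2 (0.991) and Ddit3 (0.989), the stress factor CHOP. For Slc7a5 the closest was the transporter Slc6a9 (0.982), before Pias3 (0.980) and Rhobtb1 (0.976). Slc7a11 went with Cpt1a (0.985), which admits fatty acids to mitochondria, Narf (0.983) and Cep97 (0.980), and Slc38a2 with Crot (0.986), Pde4dip (0.985) and Dctn4 (0.985). Slc7a1 was closest to Tnrc6b (0.991), Slc7a3 to Elovl3 (0.969) and Slc1a5 to 1700086O06Rik (0.969). Slc7a6 went with Ctnna1 (0.992), the adhesion protein alpha-catenin, Sec23ip (0.989) and Tpbg (0.985), and its r with the other 9 transporters was between -0.829 and -0.365. The closest pair among the 10 was Slc1a4 and Slc3a2 (0.974), followed by Slc1a4 and Slc7a11 (0.969).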

How the data were processed

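RNA-Seq read counts of 12 libraries were analysed. The authors isolated RNA with TRIzol and sequenced poly(A)-selected libraries as single reads of 50 bases. After rRNA reads had been set aside, they used STAR 2.4.0d for mapping (mm10) and HTSeq 0.5.4p3 for counting per gene. The annotation, strand setting and overlap mode of the counting are not given in the sources used here. The deposited values are raw counts without normalization, and 0 of the table's columns were left unused. In the table, 27 symbols had been turned into dates (0.296% of counts) and are not named.

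The test was that of edgeR 4.0.16, run in R 4.3.3 (TMM, filterByExpr, a mean per condition over all 12 libraries, quasi-likelihood test, two-sided, Benjamini-Hochberg adjustment over 12154 genes, level 0.05, confidence intervals at 95%). Limma-voom, which the study used, was an alternative (limma 3.58.1), as were DESeq2 1.42.0, other normalizations and filters, the replicate block, removal of length and GC trends, and each library left out. Counts of alternatives passed are out of these 22. Exact permutation tests used normalized counts. Positions and lengths came from GENCODE M21 (GRCm38). No exon of the 10 genes overlapped an exon of another gene. At most 4.23% of the 50-base stretches of any of the 10 (Slc38a1) occurred in another gene. The transporters and lists were chosen with earlier results of these data known. Named are the 10 transporters, Birc6, up to 3 genes closest to each by Pearson's r, and from each other transporter list at most 3 that rose and 3 that fell most in a comparison of medium. Scripts were tested on simulated data.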

Additional observations from a re-analysis of the deposited data

How the results depend on the processing

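Of the transporters' medium comparisons, Slc38a2, Slc3a2, Slc1a4, Slc7a1 and Slc7a11 in both lines, Slc7a3 and Slc7a5 in shRenilla and Slc7a6 in shBruce MEFs kept their call under all 22 alternatives. Over the alternatives that left out 1 library, from 7 to 10 transporters were called in shRenilla and from 6 to 9 in shBruce MEFs. For the lines in Starv the number ranged from 0 to 5, where calls over all genes ranged from 0 to 5735. It was 2 there with DESeq2's Wald test, which called 3781 of 12154 genes. It was 0 with length and GC trends removed, with these trends removed and a replicate block, and with only the groups compared. Upper-quartile normalization moved the median starvation change of all genes to 0.08 in shRenilla MEFs (1588 higher and 641 lower, against 1178 and 883) and to 0.11 in shBruce MEFs (1991 and 933, against 1506 and 1284). Of all genes, a fit of the groups compared alone called 5013 for the medium in shRenilla MEFs (2061 in the joint fit), 956 in shBruce MEFs (2790), 597 for the lines in FM (0) and 0 in Starv (2907). In Starv, 978 were called with trends removed, 1 with the block too, and 1932 with the block alone. Without 1 library the medium calls ranged from 1149 to 3212 in shRenilla and from 1855 to 4009 in shBruce MEFs. Same-numbered libraries did not deviate together (r from -0.456 to 0.347 over 18 pairs, median -0.02). The fit with a replicate block called 8 and 8 transporters for the medium in the 2 lines, 1 in Starv and 0 in FM and for the interaction, as without it.

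Values that were not past the level changed sign, and the cause was not tested. With length and GC trends removed, without and with the replicate block, the line difference in FM was -0.061 and -0.062 for Slc3a2 and -0.0052 and -0.0021 for Slc1a5, and that in Starv was 0.099 and 0.088 for Slc7a1, -0.059 and -0.074 for Slc3a2, 0.096 and 0.096 for Slc38a1 and -0.086 and -0.091 for Slc1a5. The interaction of Slc7a1 was 0.12 and 0.11, and with the block that of Slc3a2 was -0.012 and the FM difference of Slc7a3 -0.0016. The interaction of Slc7a1 was 0.0085 with DESeq2's size factors and its Wald test, 0.0029 with upper-quartile normalization and 0.0087 with at least 10 counts in every sample. The FM difference was -0.0087 for Slc7a6 without a filter and -0.049 for Slc7a11 with limma-voom, and the Starv difference of Slc7a5 was 3.4e-05 with upper-quartile normalization. With each library left out, the starvation change of Slc38a1 in shBruce MEFs ranged from -0.048 to 0.26, the FM difference from -0.20 to 0.23 (Slc7a3), from -0.038 to 0.032 (Slc7a6) and from -0.62 to 0.42 (Slc7a11), the Starv difference from -0.34 to 0.047 (Slc7a1), from -0.17 to 0.055 (Slc7a5) and from -0.092 to 0.17 (Slc3a2), and the interaction from -0.19 to 0.21 (Slc7a1), from -0.16 to 0.11 (Slc3a2) and from -0.17 to 0.072 (Slc1a5).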
